A study of Drosophila melanogaster with 12 samples.

Results

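The cytosolic ribosome of *Drosophila* is built from ribosomal RNA and a set of ribosomal proteins, most of them encoded by 1 gene each, and the genes described here are the cytosolic ribosomal protein genes. A gene was a member if its symbol started with RpL (large subunit) or RpS (small subunit) followed by a digit or P, so the genes of the mitochondrial ribosome, the S6 kinases and pseudogenes were not members. Of 10392 genes in the merged table, 90 were members, with 46 genes of the large subunit, 35 of the small subunit, 3 of the stalk, 2 fusions with ubiquitin and 4 genes named -like. All 90 are annotated as protein coding, and they lie on every chromosome arm, with 22 on 3R, 21 on 2R, 18 on 2L, 14 on 3L, 14 on X and 1 on the fourth chromosome.

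Ribosomal protein genes are among the most highly expressed genes of a growing cell, and their expression is coordinated so that subunits form in balance. Ribosomal proteins are assembled onto ribosomal RNA in the nucleolus by a separate set of ribosome biogenesis factors, which the growth regulator *Myc* is known to induce. Some members have a paralog, a second gene for the same protein, and several of the *Drosophila* paralogs are known for expression in the germ line.

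The study profiled larval hemocytes, the blood cells of the fly, by single-cell RNA-seq. Unwounded and wounded cells came from larvae of *w; HmlΔ-GAL4, UAS-2xEGFP* (Hml>EGFP), where the *Hml* driver labels plasmatocytes, the macrophage-like hemocytes. Larvae aged 96 hr AEL (after egg laying) were wounded with a tungsten needle and bled 24 hr afterwards. Each condition had 4 libraries, replicates 1 and 2 by 10X Chromium and replicates 3 and 4 by inDrops. Wasp inf. 24 hr and wasp inf. 48 hr cells came from OreR, a wild type strain, infested by the wasp *Leptopilina boulardi* at 72 hr AEL, and each time had 3 Drop-seq libraries made without the density gradient of the other conditions. The labels give an age of 96 hr AEL at 24 hr and of 128 hr AEL at 48 hr, which is later than infestation age and time add up to. Cells were pooled from many larvae, and nothing in the labels says that replicates came from separate crosses, so p-values measure the spread between these libraries.

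In the merged table, the 11 libraries of unwounded, wounded and wasp inf. 24 hr hemocytes held 19458 cells and from 623998 to 17452765 unique molecular identifiers (UMIs, counted molecules). The deposited Drop-seq tables of both wasp times held 6268 and 7035 cells after filtering. Hemocyte identity was checked by the summed CPM (UMIs of a gene scaled to a common library total) of 6 hemocyte markers, which were 13730 to 23265 in unwounded and wounded libraries and 2206 to 4298 in Drop-seq libraries. Of these markers, *Col4a1* had 3973 to 12542 CPM in unwounded and wounded libraries but 0 in the wasp libraries of the merged table. The sums of those wasp libraries therefore leave this marker out. *Hml* was lower there too, at 561 to 1189 CPM against 3298 to 8548, and so was *Pxn*, at 132 to 273 against 2648 to 5545. *He* was higher there, at 1382 to 2083 against 274 to 1057 CPM, and *srp* and *NimC1* overlapped. Technology, strain and infestation cannot be told apart in these levels. Fat body markers summed to 0 to 84.1 CPM, muscle markers to 6.80 to 57.2 CPM and salivary gland markers to 0 to 0.687 CPM over all tables. Unwounded replicate 4 had the fewest UMIs, and mitochondrial and ribosomal RNA genes took 21.1% of its UMIs and 20.5% in wounded replicate 4, against 9.08 to 15.5% in the other unwounded and wounded libraries. Libraries shared at most 44 cell barcodes with another.

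Most members were expressed at similar high levels in hemocytes, and a few stood far below. By the mean over the 3 technologies, 77 members had at least 1000 CPM, from 1922 to 8411 with a median of 3192, and held 99.0% of the summed member CPM. A further 6 members lay between 50 and 1000 CPM and 7 under 50 CPM. Large subunit and stalk genes (RpL symbols) took 57.6 to 61.9% of the member UMIs in each library, and RpS genes took the remainder. No cell lacked a member UMI in any table. The longest annotated transcript of a member had a median of 877 bases, against 1699 bases over 13986 protein-coding genes.

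The highest member was *RpL41*, a very small protein of the large subunit, at 8472 ± 710 CPM in 10X Chromium (SD, n = 4), 7482 ± 1395 CPM in inDrops (SD, n = 4) and 9279 ± 1664 CPM in Drop-seq (SD, n = 3). It was followed in mean CPM by *RpLP2* (5383), an acidic protein of the stalk that recruits elongation factors, *RpL39* (5276) of the large subunit, *RpS25* (4890) of the small subunit and *RpL38* (4789) of the large subunit. Per kb of the longest transcript, *RpL41* led with 26283 CPM and *RpL39* came next with 18319 CPM. Among the stalk genes, *RpLP1* had a mean of 4446 CPM and *RpLP0*, which anchors the acidic proteins, 2116 CPM. The ubiquitin fusions *RpS27A* and *RpL40* are cleaved into ubiquitin and a ribosomal protein, and their mean levels were 4257 and 2681 CPM.

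Which members were highest differed between the technologies. Across the 77 members with at least 1000 CPM, the Spearman correlation of levels was 0.18 between 10X Chromium and inDrops, 0.52 between 10X Chromium and Drop-seq and 0.32 between inDrops and Drop-seq, while between libraries of the same technology it was 0.71 to 0.97 in 10X Chromium, 0.83 to 0.95 in inDrops and 0.89 to 0.94 in Drop-seq. These are correlations across genes, which are not independent replicates. The levels of 15 members were over 2-fold apart between 10X Chromium and inDrops, the levels of 17 between 10X Chromium and Drop-seq and the levels of 24 between inDrops and Drop-seq. *RpL39* had 9933 ± 1143 CPM in 10X Chromium and 1256 ± 512 CPM in inDrops (SD, n = 4 each). *RpL35*, of the large subunit, went the other way with 2034 ± 172 and 5669 ± 1821 CPM (SD, n = 4 each). Technology and pipeline cannot be told apart here. The Drop-seq libraries, all of wasp inf. 24 hr, also differ from the others in infestation, strain, age, cell isolation and annotation.

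The 12 paralog pairs differed in how their UMIs were divided. *RpL34a* took 14.8 to 28.8% of the UMIs of *RpL34a* and *RpL34b*, with a level of 280 to 999 CPM. *RpS14b* took 7.33 to 37.9% of the UMIs of *RpS14a* and *RpS14b*. These neighbors on the X chromosome encode the same protein. How reads were placed between them was not tested, and the split is uncertain. The share of *RpS14b* was 17.3, 27.2, 24.0 and 28.7% in the 10X Chromium libraries (unwounded 1 and 2, wounded 1 and 2), 7.33, 8.23, 9.22 and 11.1% in the inDrops libraries (unwounded 3 and 4, wounded 3 and 4) and 37.9, 28.7 and 29.4% in wasp inf. 24 hr. The inDrops libraries thus lay below every other library.

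Lower shares were taken by *RpL24-like* (4.07 to 9.26% of its pair with *RpL24*), *RpLP0-like* (2.70 to 8.68% with *RpLP0*) and *RpS15Ab* (3.21 to 6.89% with *RpS15Aa*). *RpL24-like* and *RpLP0-like* are related to yeast Rlp24 and Mrt4, which act in the assembly of the large subunit, while *RpS15Ab* is a second copy of a small subunit gene. *RpL24-like* had 134 ± 31.8 CPM in 10X Chromium, 184 ± 27.3 CPM in inDrops (SD, n = 4 each) and 228 ± 10.3 CPM in Drop-seq (SD, n = 3). *RpL7-like* was detected with 58.4 to 64.8 CPM in the 4 inDrops libraries and with 0 UMIs in every 10X Chromium library. In the deposited 10X Chromium matrices it likewise had 0 UMIs. It is listed at 0 in the wasp libraries of the merged table but not in the deposited Drop-seq tables, so that no level can be given there.

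The remaining 6 paralogs *RpL10Aa*, *RpL22-like*, *RpL37b*, *RpS10a*, *RpS19b* and *RpS5b* had few UMIs in hemocytes, and *RpL22-like*, *RpS5b*, *RpS10a* and *RpS19b* are known for their expression in the *Drosophila* germ line. *RpS5b* had 20.6, 29.3, 12.7 and 15.1 CPM in the 10X Chromium libraries, 0 to 1.5 CPM in the inDrops libraries and 5.10 to 24.5 CPM in wasp inf. 24 hr. In unwounded replicate 2, 1 barcode held 103 of the 125 *RpS5b* UMIs, and in wounded replicate 2, 1 barcode held 74 of 149. The other 5 paralogs were raised in the replicate 2 libraries of 10X Chromium only. *RpL37b* was at 50.9 CPM in unwounded replicate 2 and 24.4 CPM in wounded replicate 2, and had 0 UMIs in the 6 other 10X Chromium and inDrops libraries. It is listed at 0 in wasp inf. 24 hr, but the deposited 24 hr table does not list the gene, so that no level can be given there. *RpL22-like* was at 19.0 and 13.9 CPM there and at most 0.371 CPM elsewhere. *RpL10Aa* was at 6.10 and 8.71 CPM, and at most 0.742 CPM elsewhere, and *RpS10a* at 12.2 and 8.0 CPM, and at most 1.60 CPM elsewhere. *RpS19b* was at 49.8 and 34.0 CPM, and at 2.97 to 14.4 CPM in the other libraries. The map of low paralogs shows these replicate 2 columns beside the inDrops signal of *RpL7-like*.

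**Figure D1:**
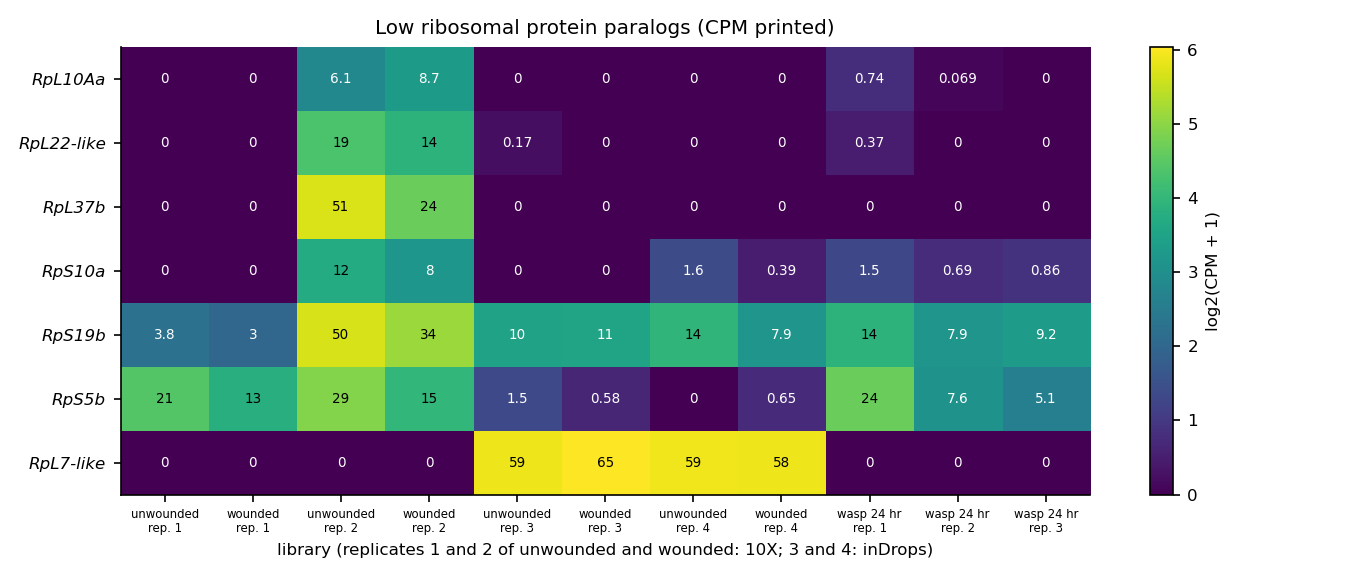
Level of 7 low members in each library of the merged table, colored by log2(CPM + 1) with the CPM printed in each cell; columns are libraries. *RpL37b* is at 50.9 and 24.4 CPM in the replicate 2 libraries and at 0 in the other 10X Chromium and inDrops libraries, and *RpL7-like* is at 58.4 to 64.8 CPM in the inDrops libraries. The zeros of these 2 genes in the wasp libraries are no levels, since the deposited 24 hr table lists neither.

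The UMIs of these 5 paralogs in the replicate 2 libraries came from very few barcodes. In unwounded replicate 2, 1 barcode held 528 of their 588 UMIs. It had 203407 UMIs in all, where the library median was 4310.5, and members took 7.19% of them, where the library as a whole had 24.0%. In wounded replicate 2, 2 barcodes with 156599 and 194048 UMIs held 471 and 309 of 879 UMIs, and members took 7.09 and 3.58% of their UMIs. All 3 barcodes were assigned to cluster PM6 by the authors. They held 2163, 1738 and 3153 UMIs of a list of testis and germ line genes, out of 2506 in the first library and 5761 in the second (*zfh1*, which hemocytes also express, not counted). That list was written after the levels of these paralogs were seen. Its sperm genes *Mst87F*, *Mst84Db*, *Mst98Ca*, *dj* and *ocn* were at 35.9 to 105 CPM in the replicate 2 libraries of 10X Chromium and at 0 to 0.229 CPM in the other 9 libraries. Barcodes with at least 20 UMIs of the list numbered 2 in each replicate 2 library, 14 over the wasp inf. 48 hr libraries (3, 2 and 9) and 0 elsewhere. Without them the member share was 24.9% in place of 24.0% in unwounded replicate 2 and 23.5% in place of 22.9% in wounded replicate 2.

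Members took 17.9 to 26.1% of the UMIs of unwounded and wounded hemocytes. The difference with wounding was smaller than the spread between libraries of a condition. The share was 21.1, 24.0, 26.1 and 19.1% in unwounded replicates 1 to 4 and 20.9, 22.9, 24.5 and 17.9% in wounded replicates 1 to 4. The 2 groups overlapped, and replicates of a technology differed more than conditions. The means were 22.6% ± 3.09 and 21.6% ± 2.85 (SD, n = 4 each), a difference of −1.02 percentage points (exact permutation test within technology, two-sided, p = 0.556, where the smallest p the 36 arrangements allow is 0.0556). Within 10X Chromium the means were 22.6 and 21.9%, and within inDrops 22.6 and 21.2%. Within each replicate number the wounded library was the lower, with differences from −1.55 to −0.21 points. The test above does not use this pairing. Paired by replicate number, the exact sign-flip permutation p was 0.125, the smallest 4 pairs allow. Leaving out 1 library of a pair unbalances the means, which then differed by 0.73 points without unwounded replicate 3 and by 0.64 points without wounded replicate 4, while without both replicate 4 libraries the difference was −1.11 points. Mitochondrial genes took 7.74 to 17.4% of the UMIs of these libraries, and their part in the spread of the shares was not tested, although the difference was −1.06 points with mitochondrial and ribosomal RNA genes left out of the total.

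**Figure D2:**
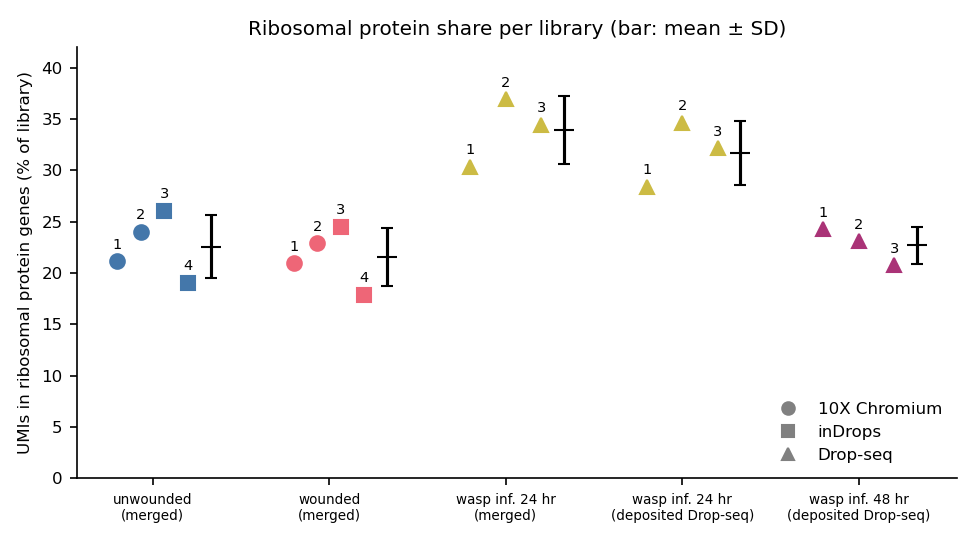
Percent of the UMIs of each library in ribosomal protein genes, by condition and table, with replicate numbers beside the points, the technology by marker shape and the mean ± SD at the right of each group. The unwounded and wounded libraries overlap between 17.9 and 26.1%, and each wasp inf. 48 hr library (20.7 to 24.3%) lies below each deposited wasp inf. 24 hr library (28.4 to 34.6%).

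Within each hemocyte class of the authors' clusters, the unwounded and wounded libraries overlapped as well. In plasmatocytes (clusters PM1 to PM12) the share was 22.4% ± 3.12 in unwounded and 21.5% ± 2.87 in wounded libraries (SD, n = 4 each), a difference of −0.91 points. In crystal cells, which store the enzymes of melanization, it was 24.5% ± 3.6 and 23.6% ± 2.79, a difference of −0.93 points. In lamellocytes, the flat cells that encapsulate wasp eggs, it was 21.9% ± 3.99 and 20.5% ± 2.99, a difference of −1.42 points. The wounded share was lower than the unwounded share of the same replicate number in plasmatocytes and in lamellocytes. In crystal cells it was higher in the 10X Chromium pairs, at 22.7 against 22.0% (replicate 1) and 26.07 against 26.00% (replicate 2). It was lower in the inDrops pairs of crystal cells, at 25.5 against 28.9% (replicate 3) and 20.0 against 21.2% (replicate 4). The exact permutation p-values within technology were 0.556, 0.722 and 0.5, each 0.722 after adjustment over the 3 classes. They do not use the pairing by replicate number, and no paired test was made by class.

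No member was called with wounding, which is what the share of genes called would give. Of 86 members tested with edgeR over all hemocytes, 0 were called higher, where 0.326% of all 7660 genes were, and 0 were called lower, where the share of all genes was 0% (adjusted p under 0.05). With DESeq2 0 members were called as well, and 2 members had an unadjusted p under 0.05 in edgeR (264 of all genes). These were *RpS5b*, with a log2 fold change of −0.91 ± 0.32 (SE), and *RpS15Ab*, with −0.48 ± 0.21, and their edgeR adjusted p-values were 0.932 and 0.999. The log2 fold changes of members ran from −0.91 to 0.26 with a median of −0.11 (29 positive, 57 negative), where the median of all genes was 0.00. In plasmatocytes alone, 0 of 86 members were called higher (0.122% of 7379 genes) and 0 lower (0% of genes) with edgeR, and 0 with DESeq2. The same 2 members had an unadjusted p under 0.05 there, and the median member log2 fold change was −0.11. With the replicate number as a block, 0 members were called in either fit, while the calls over all genes went from 25 higher and 0 lower to 115 and 38 in all hemocytes and from 9 and 0 to 62 and 44 in plasmatocytes.

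Within a library, clusters of hemocytes differed in the share of UMIs in members, and lamellocytes were low and crystal cells high. The comparisons of clusters are a description, since the cells were clustered on genes that included members. For each cluster with at least 10 cells in a library, the share was compared with that of all other cells of the same library. Crystal cells were higher in 10 of 10 libraries, by a median of 2.02 points (0.39 to 3.56), of which the smaller cluster CC1 was higher in 4 of 4 libraries (median 3.36) and CC2 in 10 of 10 (median 1.69). Lamellocytes were lower in 9 of 11 libraries, with a median of −1.32 points and a range from −5.28 to 0.79. The exceptions were the unwounded 10X Chromium libraries, at 0.04 and 0.79 points. Cluster LM2 was lower in 6 of 6 libraries, with a median of −4.76 points and a range from −8.49 to −1.20.

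Among plasmatocyte clusters, PM4 was higher in 8 of 8 libraries, by a median of 1.55 points. PM6 was at 3.26 to 4.15 points above the other cells in the 3 wasp inf. 24 hr libraries and at −1.14 and −0.64 points in wounded replicates 3 and 4. PM7 was at 1.36 to 2.18 points in wasp inf. 24 hr, at 1.06 points in unwounded replicate 2 and at −4.34 to −1.99 points in the 4 wounded libraries. Infestation cannot be told apart from technology and strain in these values. The lowest value was that of PM10 in wasp inf. 24 hr replicate 3, with 17.6% against 34.5% in the other cells. It rested on 21 cells with a median of 1354 UMIs, while in the 6 other libraries PM10 differed by −0.61 to 1.02 points. The highest and lowest cluster of a library were 1.69 points apart in unwounded replicate 1 and 21.8 points apart in wasp inf. 24 hr replicate 3.

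**Figure D3:**
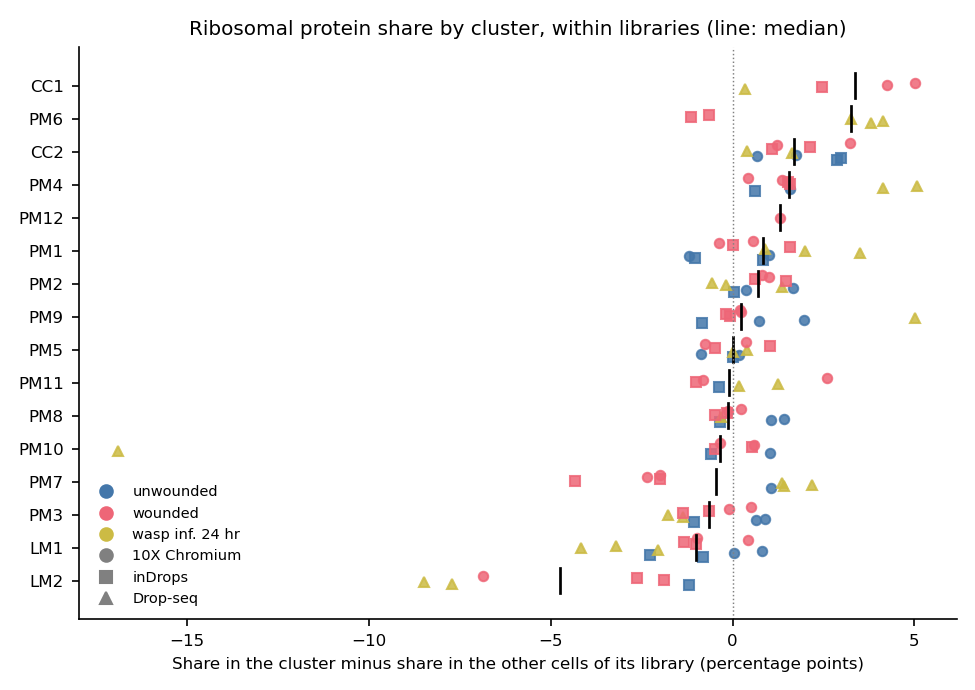
Share of UMIs in ribosomal protein genes in each cluster minus that in the other cells of the same library, in percentage points, 1 point per library with at least 10 cells of the cluster, colored by condition and shaped by technology, with the median as a line. LM2 lies below 0 in its 6 libraries (−8.49 to −1.20) and CC2 above 0 in its 10 (0.40 to 3.24).

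The wasp inf. 24 hr libraries of the merged table had member shares of 30.3, 36.9 and 34.4%, a mean of 33.9% ± 3.31 (SD, n = 3), and each lay above every unwounded library. Infestation cannot be told apart here from technology, strain, age, cell isolation or annotation, so no test was made. A part of this distance was found only in the merged table. In the same cells, the deposited wasp inf. 24 hr table gave 28.3, 34.6 and 32.2%, since 6.63, 6.24 and 6.5% of the UMIs of these cells were not in the merged table while at most 1 member UMI per library was lost. Of 38 listed translation factors in the merged table, 24 had 0 UMIs in all 3 wasp libraries, *eEF1alpha1*, *eEF2* and *eIF4A* among them, and none had 0 UMIs in all libraries of another technology. In the deposited Drop-seq tables, 28 translation factors stood under an older symbol. The 38 factors summed to 16589 to 18389 CPM in the wasp libraries of the merged table and to 39652 to 44958 CPM in the deposited one. Comparisons of the wasp times were therefore made in the deposited tables.

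The share of UMIs in members was lower at 48 hr than at 24 hr after infestation. It was 28.4, 34.6 and 32.2% at 24 hr and 24.3, 23.1 and 20.7% at 48 hr in the deposited tables, with no overlap between the times. The means were 31.7% ± 3.12 and 22.7% ± 1.80 (SD, n = 3 each), a difference of −9.03 points, with an exact permutation p of 0.1, the smallest that 3 against 3 libraries allow. The larvae also differed in age. Cells with at least 5 UMIs of the lamellocyte marker *atilla* were 5.59 to 21.6% of cells at 24 hr and 60.5 to 71.5% at 48 hr. Among cells with 0 *atilla* UMIs the difference was −3.72 points (exact permutation p = 0.3), and among cells with at least 5 it was −6.57 points (exact permutation p = 0.1). In summed libraries, a change in the makeup of cells and a change within cells cannot be told apart.

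Of 86 members tested with edgeR, 0 were called higher at 48 hr, where 19.6% of all 7943 genes were, and 12 were called lower (14.0% of members), where 15.9% of all genes were. All 86 had a negative log2 fold change, from −1.24 to −0.15, and their median was −0.56 where that of all genes was 0.00. The CPM of every 48 hr library was under that of every 24 hr library for 78 of 86 members (90.7%), where this held for 21.6% of all genes. RpL and RpS genes had similar values, with medians of −0.56 over 50 and −0.54 over 36 genes. The number of calls depended on single libraries and was 82 without wasp inf. 24 hr replicate 1, which held 204 cells, and 2 to 6 without any of the others.

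The largest decrease among called members was that of *RpL22*, a large subunit protein that in *Drosophila* carries an extension resembling histone H1. It was at 1661, 1059 and 903 CPM at 24 hr and at 546, 513 and 590 CPM at 48 hr. Each 48 hr library lay below each 24 hr library, and the log2 fold change was −1.12 ± 0.18 (SE, edgeR adjusted p = 0.00423). *RpS14b*, whose split from *RpS14a* is uncertain, was at 1465, 1130 and 791 CPM at 24 hr and at 635, 626 and 423 CPM at 48 hr, with a log2 fold change of −1.01 ± 0.25 (edgeR adjusted p = 0.0199). *RpL41* went from 9521, 9787 and 6880 CPM to 5384, 4426 and 3755 CPM (−0.98 ± 0.25, edgeR adjusted p = 0.0215). *RpS2*, of the small subunit, went from 3896, 3795 and 4365 CPM to 2609, 2238 and 1788 CPM (−0.90 ± 0.24, edgeR adjusted p = 0.024). None of the 4 overlapped between times. The other 8 members called lower were *RpL34b*, *RpS15Ab*, *RpL24-like*, *RpLP0-like*, *RpL34a*, *RpS9*, *RpL29* and *RpL39*, with log2 fold changes from −0.89 to −0.54. Among cells with 0 *atilla* UMIs the calls of *RpL22* (−1.02) and *RpS14b* (−1.002) held, and those of *RpL41* (−0.73) and *RpS2* (−0.76) were lost.

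Within libraries, cells with at least 5 *atilla* UMIs had a smaller share of their UMIs in members than cells with none. At 24 hr the shares were 30.02, 35.4 and 33.1% in cells with 0 *atilla* UMIs and 25.9, 29.3 and 27.5% in cells with at least 5. At 48 hr they were 30.8, 30.4 and 26.1% and 22.0, 21.5 and 19.5%. The share was lower in 6 of 6 libraries, by a mean of −6.71 points and from −8.96 to −4.14 points (exact sign-flip permutation test, two-sided, p = 0.03125, the smallest that 6 libraries allow). The difference was −5.29 ± 1.04 points at 24 hr and −8.14 ± 1.31 points at 48 hr (SD, n = 3 each), and the distance between the times, −2.84 points, had an exact permutation p of 0.1, the smallest possible. At 48 hr the share at 0, at 5 to 9 and at 10 or more *atilla* UMIs was 30.8, 28.2 and 21.7% in replicate 1, 30.4, 28.4 and 21.2% in replicate 2 and 26.1, 25.7 and 19.2% in replicate 3. In each of these 48 hr libraries the larger part of the difference lay between 5 to 9 and 10 or more UMIs. At 24 hr the same shares were 30.02, 26.4 and 25.7% in replicate 1, 35.4, 30.5 and 29.1% in replicate 2 and 33.1, 29.7 and 27.1% in replicate 3. There the larger part lay between 0 and 5 to 9 UMIs in each library.

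**Figure D4:**
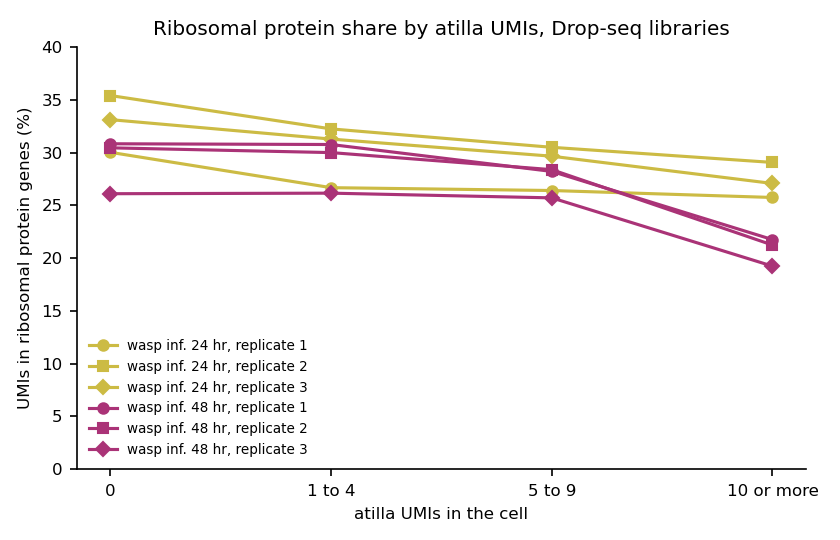
Percent of UMIs in ribosomal protein genes in cells with 0, 1 to 4, 5 to 9 and 10 or more *atilla* UMIs, 1 line per Drop-seq library, colored by time after infestation. In each of the 6 libraries the share is lower at 10 or more UMIs than at 0, with 25.7 to 29.1% against 30.02 to 35.4% at 24 hr and 19.2 to 21.7% against 26.1 to 30.8% at 48 hr.

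Cells with at least 5 *atilla* UMIs were also deeper, with a median of 8721 to 9123.5 UMIs at 48 hr against 3752.5 to 3927 in cells with 0. Weighting the cells with 0 *atilla* UMIs to the depth of the others left a difference of −6.15 points, lower in 6 of 6 libraries. The median number of member UMIs per cell was higher in the *atilla* group in every library, for example 2007.5 against 1167.5 in wasp inf. 48 hr replicate 1, so the lower share stood beside a larger count. The 10 highest genes other than members took 10.98 to 12.3% of UMIs in the *atilla* group and 6.74 to 7.67% in the cells with 0 at 48 hr. The cytoplasmic actin genes *Act5C* and *Act42A* led them in the *atilla* group at 48 hr. At 24 hr the order was the reverse, with 8.80 to 10.04% in the *atilla* group and 9.86 to 11.5% in the cells with 0, lower in the *atilla* group of 3 of 3 libraries, although the member share was lower there too.

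Gene by gene, more than every other member was called lower at 24 hr. Of 85 members tested with edgeR, 0 were higher in the *atilla* group, where 14.4% of all 6721 genes were, and 50 were lower (58.8% of members), where 11.4% of all genes were. All 85 log2 fold changes were negative, from −0.85 to −0.14, with a median of −0.25 where that of all genes was −0.01. For 85 of 85 members the CPM was lower in the *atilla* group of all 3 libraries, where this held for 28.8% of all genes. The calls numbered 2 to 18 when any of the libraries was left out, 4 without replicate 1, 18 without replicate 2 and 2 without replicate 3. The largest called decreases were those of *RpL24-like* (−0.79 ± 0.13 on the log2 scale, SE, edgeR adjusted p = 0.00499) and *RpLP0-like* (−0.66 ± 0.11, edgeR adjusted p = 0.0055), the relatives of assembly factors. *RpL24-like* was at 271, 222 and 222 CPM in cells with 0 *atilla* UMIs and at 179, 108 and 134 CPM in the *atilla* group of the same libraries. *RpLP0-like* was at 185, 143 and 187 CPM and at 129, 97.9 and 102 CPM. These were followed by *RpS15Ab* (−0.44 ± 0.12, edgeR adjusted p = 0.0352) and *RpL41* (−0.38 ± 0.08, edgeR adjusted p = 0.0125).

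At 48 hr the result for single members depended on the scaling. With the scaling of edgeR (TMM), 0 of 87 members were called higher in the *atilla* group, where 30.7% of all 7955 genes were, and 8 were called lower (9.20% of members), where 31.5% of all genes were. The median log2 fold change of members was −0.02, the same as that of all genes at 2 decimals. With each sum scaled by its total UMIs only, 86 members were called lower, the median of all genes moved to −0.46 and that of members to −0.47. Of all genes, 1404 were then called higher and 4131 lower, against 2440 and 2502 with TMM. With all cells and libraries, the median of members was therefore not shifted from that of all genes at 48 hr under either scaling. The CPM was lower in the *atilla* group of all 3 libraries for 85 of 87 members (59.5% of all genes). Without wasp inf. 48 hr replicate 3, 63 of 85 members were called lower, where 2270 of 7421 genes were. The medians were then −0.11 for members and −0.01 for all genes. With only all-0 genes left out of the fit they were 0.13 and 0.07. The plot of fold changes by comparison sets the members beside all genes.

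**Figure D5:**
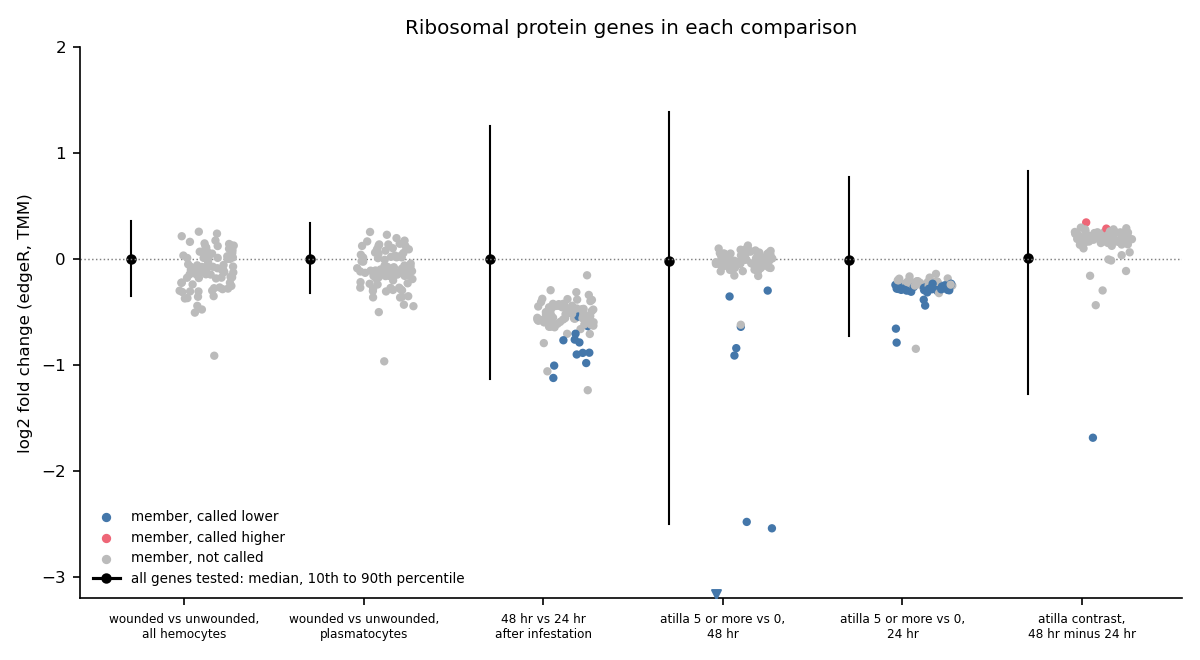
Log2 fold change of each ribosomal protein gene (points) in 6 comparisons by edgeR with TMM scaling, colored by call, with the median and the 10th to 90th percentile of all genes tested in black at the left of each group. A triangle marks 1 member beyond the axis. Members lie below 0 at 48 hr against 24 hr (median −0.56) and by *atilla* at 24 hr (median −0.25), and around 0 by *atilla* at 48 hr (median −0.02).

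Of the 8 members called lower in the *atilla* group at 48 hr, *RpL41* alone belongs to none of the 12 paralog pairs. *RpL24-like* was at 261, 264 and 236 CPM in cells with 0 *atilla* UMIs and at 109, 99.2 and 88.4 CPM in the *atilla* group, with a log2 fold change of −0.91 ± 0.10 (SE, edgeR adjusted p = 5.25e-07). *RpS15Ab* (−0.84), *RpLP0-like* (−0.64), *RpL41* (−0.35) and *RpL34a* (−0.30) were lower too. *RpS19b* had 19, 19 and 36 UMIs in cells with 0 *atilla* UMIs and 23, 19 and 34 in the *atilla* group, which in CPM was 7.89, 10.5 and 19.0 against 1.93, 1.32 and 1.52. Its log2 fold change was −2.48 ± 0.36 (edgeR adjusted p = 1.62e-05). *RpL10Aa* had 2, 5 and 20 UMIs in cells with 0 *atilla* UMIs and 1, 3 and 0 in the *atilla* group, and *RpS10a* had 1, 3 and 8 and 6, 3 and 2. The edgeR adjusted p-values of *RpL10Aa* and *RpS10a* were 0.00017 and 0.025. Of the barcodes rich in testis-list UMIs, 8 were among the cells with 0 *atilla* UMIs and none in the *atilla* group. With these barcodes left out, *RpL10Aa* and *RpS10a* had too few UMIs to be tested, and *RpS19b* kept its call at −1.77. Of 85 members, 19 were then called lower, where 2156 of 7517 genes were. The medians were −0.076 for members and −0.003 for all genes.

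The *atilla* contrast at 48 hr and that at 24 hr differed for 3 of 85 members, a share under that of all genes in each direction. By the interaction term of edgeR with TMM scaling, the contrast of *RpL37A* (0.35 ± 0.09, SE, adjusted p = 0.0261) and *RpS10b* (0.29 ± 0.09, adjusted p = 0.0497) was called higher at 48 hr. Of all 7313 genes, 10.2% were called higher. The contrast of *RpS19b* (−1.69 ± 0.49, edgeR adjusted p = 0.0389) was called lower, where 8.38% of all genes were. *RpL37A* and *RpS10b* are genes of the large and the small subunit. The median of members was 0.19 and that of all genes 0.01. Total UMIs as the scale moved all genes together. The median of all genes was then −0.40 and that of members −0.22, so that members lay above all genes by 0.18 with either scaling. *RpL37A* and *RpS10b* went to −0.070 and −0.13 with this shift, and 0 members were called higher and 71 lower (334 and 1909 of all genes, against 744 and 613 with TMM). With the barcodes rich in testis-list UMIs left out, *RpS19b* was at −0.96 and was not called (edgeR adjusted p = 0.158).

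Most of the listed factors that build the ribosome were lower in the same comparisons. The list of ribosome biogenesis genes held 30 genes, of which 28 were tested in the Drop-seq tables. It includes the regulator *Myc*, which is also on the list of growth regulators below and is counted in both. At 48 hr against 24 hr, 23 of them were called lower, where 15.9% of all genes were, and 0 higher, with a median log2 fold change of −0.92. By *atilla*, 27 were lower and 0 higher at 48 hr (median −1.26, 31.5% of all genes lower), and 20 were lower and 0 higher at 24 hr (median −0.75, 11.4% of all genes lower). *Fib*, the nucleolar methyltransferase fibrillarin, was at −1.44 ± 0.20 at 48 hr against 24 hr (SE, edgeR adjusted p = 0.00256), at −1.63 ± 0.11 by *atilla* at 48 hr (edgeR adjusted p = 2.14e-09) and at −1.29 ± 0.11 by *atilla* at 24 hr (edgeR adjusted p = 0.000346). Its partners in box C/D particles, *nop5* and *Nop56*, were at −1.82 and −1.33 by *atilla* at 48 hr. The contrast by *atilla* was larger at 48 hr than at 24 hr for 10 of 28 genes, all lower (median −0.49), where 8.38% of all genes were called lower. With wounding, 0 of 29 genes of the list were called.

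*Myc* was the growth regulator with the largest decrease, at −1.81 ± 0.32 on the log2 scale at 48 hr against 24 hr, −2.26 ± 0.11 by *atilla* at 48 hr and −1.51 ± 0.13 by *atilla* at 24 hr (SE, edgeR adjusted p = 0.00559, 1.41e-11 and 0.000379). The transcription factor *foxo*, which is active when insulin signaling is low, was higher in the same comparisons by 1.48 ± 0.27, 2.22 ± 0.12 and 1.20 ± 0.22 (edgeR adjusted p = 0.00626, 1.41e-10 and 0.00773). Of 14 growth regulators tested, 1 was higher and 3 lower at 48 hr against 24 hr, where 19.6% and 15.9% of all genes were. By *atilla* at 48 hr, 5 were higher and 2 lower, where 30.7% and 31.5% of all genes were. By *atilla* at 24 hr, 2 were higher and 2 lower, where 14.4% and 11.4% of all genes were. *Myc* and *foxo* are thus single genes of a short list. *Thor*, a repressor of cap-dependent translation, was called lower at 48 hr against 24 hr (−1.27) and higher by *atilla* at 24 hr (0.87).

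The list of translation factors also holds *bic*, *Nacalpha*, *Rack1* and *sta*, whose products are described below. Of the listed translation factors, 4 of 38 were lower at 48 hr against 24 hr (*eIF6*, *eIF3b*, *eIF2beta* and *eIF5B*) and 0 higher (median −0.35), where 15.9% and 19.6% of all genes were. By *atilla* at 24 hr, 8 of 37 were lower and 1 higher (median −0.20), where 11.4% and 14.4% of all genes were, with the elongation factors *eEF1alpha1* (−0.23) and *eEF2* (−0.31) among the lower. By *atilla* at 48 hr, 7 of 37 were higher and 3 lower (median 0.08), where 30.7% and 31.5% of all genes were, and the higher ones included the cap-binding *eIF4E1* (0.45), the helicase *eIF4A* (0.45) and the start codon factor *eIF5* (0.72). These are values with TMM scaling, and total UMIs as the scale moved the median of all genes by about the size of the smaller increases, to −0.46. The factor *eIF6*, which is needed to form the large subunit, was lower in each of these comparisons, at −0.80, −0.82 and −1.19. Of 72 mitochondrial ribosomal protein genes tested, 21 were lower and 0 higher at 48 hr against 24 hr, 19 lower and 4 higher by *atilla* at 48 hr, and 4 lower and 0 higher by *atilla* at 24 hr. The share of all genes called lower was 15.9%, 31.5% and 11.4% in these comparisons, above that of the list in both *atilla* comparisons. These comparisons share libraries, and 0 genes of these lists were called with wounding.

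Over the sums of library and cluster, the members had similar patterns. The CPM of each gene with a UMI in all 122 sums (694 genes, 81 of them members) was compared with the summed member CPM after subtraction of the library mean, where the sums share libraries and depth. The translation factors at 0 in the wasp libraries of the merged table, *eEF1alpha1*, *eEF2* and *eIF4A* among them, were thereby not compared. All 81 members had a positive Spearman correlation, with a median of 0.75 (0.19 to 0.86), while the other genes had a median of −0.07 and 38.8% were positive. A member is part of the sum it is compared with. Among the genes compared, the 5 non-members most like the members were *bic* (0.73), *Rack1* (0.63), *Fib* (0.63), *Nacalpha* (0.62) and *CG7414* (0.59). Of these, *bic* and *Nacalpha* encode the subunits of the complex that binds nascent chains at the ribosome, and *Rack1* a protein bound to the small subunit. Lower on the list, *sta* (0.53), which was picked out after its value was seen, encodes a small subunit protein that its symbol leaves outside the rule.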

How the data were processed

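Larval hemocytes were profiled by 10X Chromium, inDrops and Drop-seq in 14 libraries. The authors aligned reads to the *Drosophila* genome or, for inDrops, to its transcriptome. They collapsed UMIs into a count per gene and cell, filtered cells, converted gene symbols and merged 11 libraries into a table with 17 clusters. Drop-seq tools and STAR were used for Drop-seq, bcbio and RapMap for inDrops and Cell Ranger for 10X Chromium (version 3.1.0 in the submitters' processing notes). The deposited values used here are raw UMI counts. Drop-seq annotation was older, and matching of older symbols was needed for the lists.

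Members and lists were chosen with earlier results of these data known. The text names the 5 highest and 5 lowest members by mean CPM, members at 0 in a technology, all 12 paralog pairs, up to 4 called members per direction and comparison, and the 5 non-members most like the summed members. Gene positions came from the Ensembl annotation in the box, which matched all 90 members.

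Shares are member UMIs over all UMIs of the cells summed. They were compared by exact permutation tests, within technology for wounding and by sign flips within libraries for *atilla*. Cells of the Drop-seq tables were kept with at least 500 UMIs and 200 genes and at most 30% mitochondrial UMIs. UMIs were summed per library (and per *atilla* group) and tested gene by gene with the quasi-likelihood test of edgeR 4.0.16 (TMM, filterByExpr, Benjamini-Hochberg adjustment over all genes tested, threshold 0.05) in R 4.3.3, with technology as a covariate for wounding and library as a block for *atilla*. DESeq2 1.42.0 was an alternative. The code was tested on simulated data. Shares used Python 3.11.15 and SciPy 1.17.1.

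Same-numbered unwounded and wounded libraries deviated together (correlations 0.82 to 0.91 over 5915 genes, and 0.81 in 10X Chromium and 0.46 in inDrops after the technology mean was removed), and the inDrops pairs were sequenced as 1 sample each, so these numbers pair the libraries. Same-numbered wasp libraries did not (−0.15 to −0.08 over 6675 genes). Libraries held 623998 to 27556002 UMIs, and a 0 of n UMIs allows up to 3 of n. The series-wide inDrops table, which holds 7 libraries without a label, was not used here, and doublets were not called. Library suffixes of the 24 hr table were checked by barcode against the merged table, and those of the 48 hr table were read by the same convention.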

Additional observations from a re-analysis of the deposited data

Results flagged for a closer look

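The low paralogs stood apart in the replicate 2 libraries of 10X Chromium. In unwounded replicate 2, *RpL10Aa* was at 6.10 CPM, *RpL37b* at 50.9 CPM, *RpS10a* at 12.2 CPM and *RpL22-like* at 19.0 CPM, each far above the 3 other unwounded libraries by the gap between samples. In wounded replicate 2, the same genes were at 8.71, 24.4, 8.0 and 13.9 CPM, again far above the 3 others. Of 27 groups of libraries examined in this way, 8 had a library that stood apart. *RpL10Aa* and *RpL37b* had 0 UMIs in the 3 other libraries of each condition. Any UMI in the fourth library then stands apart by this rule, so no rate expected by chance can be set beside the count. The 8 are not independent, since they are the same 4 genes in 2 libraries and rest mostly on 3 barcodes. The barcodes rich in testis-list UMIs that carry most of these UMIs are described above, and their part in the levels is given there as counts.

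For 3 members the *atilla* contrast differed between the wasp times by the interaction term of edgeR, namely *RpL37A* (0.35 on the log2 scale), *RpS10b* (0.29) and *RpS19b* (−1.69). Scaling by total UMIs shifted all genes in this term, from a median of 0.01 to −0.40, and these members with them. Leaving out testis-rich barcodes ended the call of *RpS19b*.

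The deposited 48 hr table also lists *RpS28-like* with 32 UMIs and *RpS28a* with 5 UMIs, which fit the naming rule but are not in the merged table. *RpS28a* had 2 UMIs in the 24 hr table. In the deposited 10X Chromium matrices, *RpS28-like* had 40 UMIs in unwounded replicate 2 and 103 UMIs in wounded replicate 2, and *RpS28a* had 1 and 13 UMIs there.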

How the results depend on the processing

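The share of members kept its direction when mitochondrial and ribosomal RNA genes left the total, with the mean over cells, with members of every technology only and without testis-rich cells, in each comparison tried. For wounding, leaving out 1 library at a time gave −2.76 to 0.73 points over all hemocytes, −2.69 to 0.86 in plasmatocytes, −2.86 to 0.997 in crystal cells and −3.58 to 0.75 in lamellocytes. The positive values were 0.73, 0.86, 0.997 and 0.75 without unwounded replicate 3, 0.64, 0.78, 0.45 and 0.34 without wounded replicate 4, and 0.07 in crystal cells without unwounded replicate 2. With the replicate block, the wounded share was −1.02 points (exact sign-flip permutation p = 0.125, the smallest 4 pairs allow), and edgeR with the replicate block called 0 members, as without it, while it raised the calls over all genes to 115 higher and 38 lower in all hemocytes and to 62 and 44 in plasmatocytes. The *atilla* difference was −7.23 to −6.26 points when a library was left out, with an exact permutation p of 0.0625, the smallest that 5 libraries allow.

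The number of members called lower at 48 hr against 24 hr was 12. It was 59 with total UMIs only, 40 with the DESeq2 Wald test, 4 with only all-0 genes left out, 2 in cells with 0 *atilla* UMIs and 7 in cells with at least 5, and 2 to 82 when a library was left out. It was 4 with the replicate block, where the numbers are shared in name only. By *atilla* at 48 hr, the 8 members called lower became 86 with total UMIs only, 19 without testis-rich cells, 5 with cells weighted by depth and 5 to 63 without a library, and 1 was called higher with only all-0 genes left out. By *atilla* at 24 hr, the 50 became 81 with total UMIs only and 2 to 18 without a library. For the difference between the times, 2 members were called higher, and this was 1 with DESeq2 size factors, 0 with total UMIs only, 9 with scaling over non-members, 1 with the DESeq2 Wald test, 7 with only all-0 genes left out, 1 without testis-rich cells and 0 to 1 without a library. The 1 called lower became 71 with total UMIs only, 0 with the DESeq2 Wald test and 0 to 1 without a library. With total UMIs only, *RpL37A* was at −0.070 and *RpS10b* at −0.13, where the median of all genes was −0.40, so that their sign went with the shift of all genes. The cause of the other changes was not tested. Of the values for single named members, 133 kept their call and direction, 43 kept the direction and lost the call, and 2 turned.

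The analyses of cells with at least 5 *atilla* UMIs over time, of the genes in cells with 0 *atilla* UMIs over time, without both replicate 4 libraries and without testis-rich cells were chosen after seeing the data. Depth limits the low paralogs, several of which rest on under 30 UMIs per library, and the smallest wasp library held 204 cells.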
